A study of Mus musculus with 5 samples.

Results

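The genes described here encode the receptors and ligands of the EGF, FGF, HGF, insulin/IGF, PDGF and VEGF families, the neuropilins and discoidin domain receptors, and the feedback genes that these pathways induce. They were taken by symbol from a fixed list of 44. Of these, 42 were in all 5 tables, out of 16992 symbols common to the tables, Areg was in 4 tables and Ereg was not analysed here. RNA was sequenced from cells freshly sorted by surface CD133 (encoded by Prom1) and CD71 (the transferrin receptor, encoded by Tfrc) from the pancreas of C57BL/6 mice aged 2 to 4 months. CD133(positive)CD71(negative) cells gave 2 libraries and CD133(high)CD71(low) cells gave 3. All were untreated beyond sorting, and no genetic modification is named for either group. The titles call the latter CD71(low), while another field of their labels calls them CD71-plus. Whether the libraries stem from different mice or sorts is not stated in the labels, so every p-value covers the library-to-library spread alone, which may be technical. The question was which sorted population held each ligand and each receptor.

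These families signal in a common way. A secreted or membrane-anchored ligand brings receptor tyrosine kinases together at the cell surface, and the activated receptors pass the signal through the Ras-ERK and PI3K routes. Sprouty, Spred, Lrig1 and Errfi1 proteins then damp it. In the pancreas, EGF and FGF family signals act on the epithelium during development, while VEGF and PDGF ligands act mainly on endothelial cells and on the mural and mesenchymal cells around vessels.

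Values are RPKM (read number divided by transcript length and sequencing depth), a unit inferred from the deposited tables. Depth read from the steps between low values was 19.8 to 41.9 M reads per library. The libraries carried mixed RNA. The summed level of 15 duct markers was 3540 and 3774 RPKM in CD133(positive)CD71(negative) and 5108, 5107 and 7247 in CD133(high)CD71(low), led by Spp1 and Krt8, and 11 of the 15 were called higher. That of 16 leukocyte markers was 1620 and 1593 against 66.2, 56.0 and 29.6, that of 13 endothelial markers 847 and 794 against 257, 172 and 126, and that of 11 mesenchymal markers 252 and 232 against 96.3, 89.4 and 94.0. None of these markers was listed at 0. Acinar RNA was present throughout and lowest in library 3 of CD133(high)CD71(low), with 14 markers summing to 227782 and 203469 RPKM against 189111, 191810 and 84396. The sum of 13 endocrine markers was 1792 and 1610 against 1569, 1826 and 583, and that of 6 erythroid markers 11.7 and 12.1 against 123, 118 and 32.3. The part of these in the members' values was not tested. In such bulk samples, fewer cells of a type and less RNA per cell cannot be told apart. Prom1 measured 45.8 and 48.8 against 72.8 to 133 RPKM, and Tfrc 4.00 and 4.36 against 5.34 to 12.2. Neither was called over 5 libraries (limma adjusted p = 0.0909 and 0.151). Both were called higher without library 3 of CD133(high)CD71(low) (limma adjusted p = 0.000208 and 0.0112). In CD133(high)CD71(low), the table of library 3 lists 22522 symbols, while 18618 are listed for each of the other 4 libraries. Its log2 values correlated with those of libraries 1 and 2 of its group at 0.9575 and 0.9615 across genes, against 0.9962 between those 2, so results are also given without it.

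The receptor genes Erbb2, Erbb3, Erbb4, Fgfr3, Fgfr4 and Ddr1, the ligand genes Tgfa, Pdgfc and Vegfa and the feedback genes Spry1 and Errfi1 were higher in CD133(high)CD71(low) cells. The ligand genes Igf2, Pdgfb and Vegfc, the co-receptor genes Nrp1 and Nrp2 and the feedback gene Spry4 were lower. Of the 33 members with a mean of at least 1 RPKM, which were tested with limma on log2(RPKM + 1), 11 were higher and 6 lower at an adjusted p under 0.05. That is 33.3% and 18.2% of the tested members, beside 6.25% and 7.22% of all 11769 genes tested. Another 9 members in all tables lay below that mean. Among the lower ones, Nrp2 and Spry4 reached it only through the group in which they were high, so they had to differ to be tested and the share of lower members supports nothing by itself. With a mean of at least 5 RPKM required, 10 members were higher and 4 lower. Every library of CD133(high)CD71(low) lay above every library of CD133(positive)CD71(negative) for 25 of the 33 tested members and below for 7, or 75.8% and 21.2%, beside 58.2% and 12.0% of all tested genes. Taking CD133(positive)CD71(negative) as the base, the members' median log2 fold change was 0.52 and that of all tested genes 0.31.

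The lower calls held under more settings than the higher ones. With median-of-ratios scaling the median over all genes was 0.06. With it 8 of the 11 higher members stayed called (24.2% of the tested members, beside 2.65% of all genes), the exceptions being Erbb2, Ddr1 and Spry1, and the 6 lower members stayed called (18.2%, beside 9.25%). Without library 3, all 17 stayed called and 13 more members were higher, giving 24 higher (72.7%, beside 40.9% of all genes) and 6 lower (18.2%, beside 12.2%), where 53.1% of all genes were called in either direction. Without library 3 and with median-of-ratios scaling, 19 were higher (57.6%, beside 15.2%) and 7 lower (21.2%, beside 16.5%). Quantile normalization ended the calls of Erbb2, Fgfr3, Vegfa, Ddr1 and Spry1. Leaving out library 1 or 2 of CD133(high)CD71(low) left 1 or 0 higher members, and leaving out library 1 or 2 of CD133(positive)CD71(negative) left 0 in each case. Few genes of any kind were called higher in those fits, 89, 40, 0 and 1. The lower members were 6, 4, 1 and 1 in the same fits, beside 784, 561, 157 and 154 lower genes, with Igf2 called in all of these fits. Apart from that of Igf2, every member's call was lost in at least 1 of these fits.

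**Figure D1:**
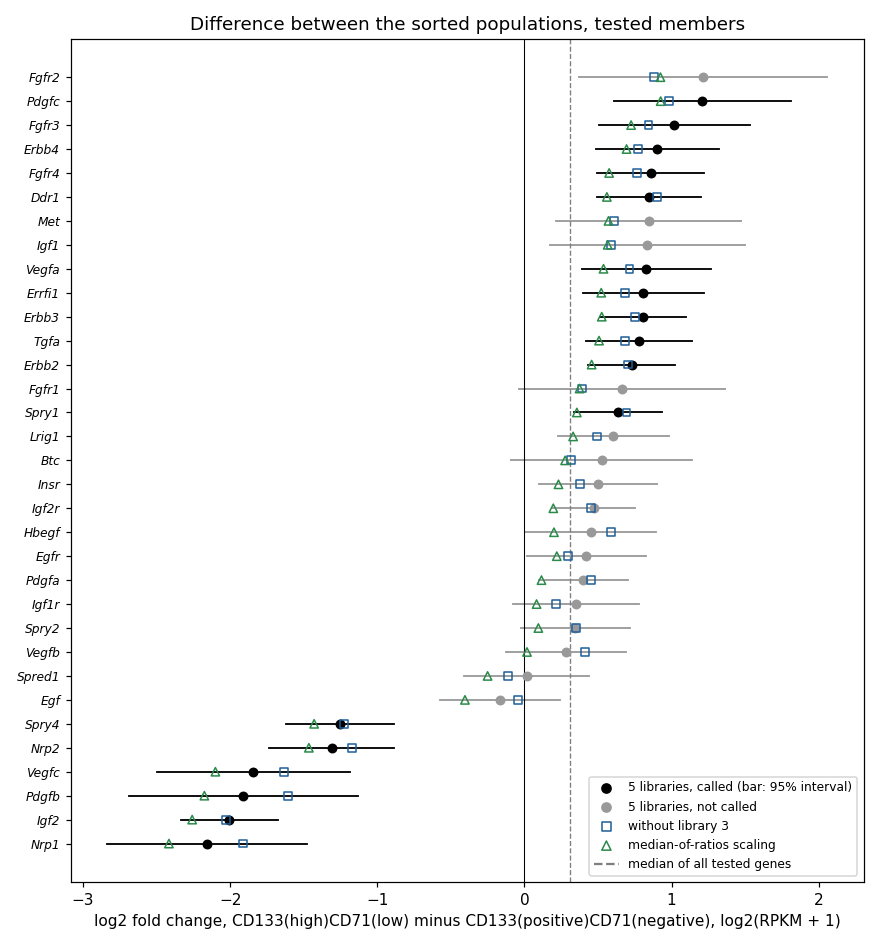
Log2 fold change of each tested member on the log2(RPKM + 1) scale, positive where CD133(high)CD71(low) was higher (x axis), with members in order of size (y axis). Filled points are the fit on 5 libraries with its 95% interval, black where called, squares the fit without library 3, triangles the fit with median-of-ratios scaling, and the dashed line the median of all tested genes at 0.31. The 6 lower members, from Spry4 at -1.25 to Nrp1 at -2.16, stand apart from the rest.

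To show the DNA in front of members that differed in either direction, the 250 bases upstream of the RefSeq start (GRCm38.p6) are given for the called members with the largest differences, among 5 called members with a single start in RefSeq whose window lies outside the annotated gene. Vegfc (lower) is at chr8:54077282-54077531 on the plus strand, Pdgfc (higher) at chr3:81036166-81036415 on the plus strand and Erbb4 (higher) at chr1:69108060-69108309 on the minus strand. Capitals mark matches, on either strand, to the GC box GGGCGG and the ETS core CCGGAA.
Vegfc: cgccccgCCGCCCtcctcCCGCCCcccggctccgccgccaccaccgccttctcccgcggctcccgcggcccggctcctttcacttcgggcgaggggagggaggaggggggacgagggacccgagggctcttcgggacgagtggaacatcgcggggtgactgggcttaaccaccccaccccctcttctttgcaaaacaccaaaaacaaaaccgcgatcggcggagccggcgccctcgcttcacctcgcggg
Pdgfc: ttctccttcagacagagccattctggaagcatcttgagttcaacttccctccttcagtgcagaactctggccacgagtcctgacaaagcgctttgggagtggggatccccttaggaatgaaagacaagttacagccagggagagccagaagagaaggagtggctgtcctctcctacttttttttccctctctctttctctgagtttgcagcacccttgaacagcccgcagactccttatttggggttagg
Erbb4: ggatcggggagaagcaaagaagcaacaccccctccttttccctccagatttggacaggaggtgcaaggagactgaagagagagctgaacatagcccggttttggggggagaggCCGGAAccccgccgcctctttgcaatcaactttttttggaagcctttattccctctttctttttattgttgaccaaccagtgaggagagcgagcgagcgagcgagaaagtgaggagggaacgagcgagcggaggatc
The Vegfc window held 2 GC boxes and had a GC content of 71.6%. The Pdgfc window held no match at 50.8% GC, and the Erbb4 window held 1 ETS core at 54.0% GC. Among all 32851 windows of this length 32.7% held a GC box and 12.0% an ETS core, and the median GC content was 52.4%. The short HNF1 motif GTTAAT (6.43% of all windows) and the TATA box TATAAA (12.4%) had no match in these 3. A match describes the letters only.

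Of the EGF family receptors, 3 of 4 (75%) were higher in CD133(high)CD71(low) cells, beside 6.25% of all tested genes. With median-of-ratios scaling 2 of 4 (50%) were higher, beside 2.65%. Erbb3 (chromosome 10, 128567523 to 128589652, mm10) encodes a receptor with little kinase activity of its own that binds neuregulins and signals through partners. It was the most abundant of the 4, at 14.4 and 15.1 RPKM in CD133(positive)CD71(negative) and 25.6, 25.5 and 28.7 in CD133(high)CD71(low). The 3 CD133(high)CD71(low) libraries were close to each other and well above the others, and the log2 fold change was 0.81 (SE 0.12, adjusted p = 0.012, 0.53 with median-of-ratios scaling). Erbb2, the ligandless partner receptor, measured 8.50 and 9.60 against 15.2, 15.5 and 16.2 RPKM, a log2 fold change of 0.73 (SE 0.12, adjusted p = 0.017, and 0.0556 with median-of-ratios scaling). Erbb4, a second neuregulin receptor, was low but showed the largest relative difference of the 4, at 1.63 and 1.72 against 3.55, 3.58 and 5.0 RPKM (log2 fold change 0.90, SE 0.17, adjusted p = 0.0255). Egfr, the receptor of EGF and TGF-alpha, was no more abundant than Erbb4, at 1.63 and 1.60 against 2.15, 2.27 and 3.16 RPKM. Its groups did not overlap, but it was not called (log2 fold change 0.42, 95% interval 0.02 to 0.82, adjusted p = 0.128). It was called without library 3 (adjusted p = 0.0334) and with quantile normalization (adjusted p = 0.0381). Leaving out 1 library at a time moved the adjusted p of Erbb3 between 7.65e-05 and 0.198, that of Erbb2 between 0.000247 and 0.246 and that of Erbb4 between 0.000205 and 0.275. Schwann cells also express Erbb3, and the summed level of 9 Schwann cell markers was 34.9 and 34.3 RPKM in CD133(positive)CD71(negative) and 20.6, 21.4 and 25.0 in CD133(high)CD71(low). Of that sum Mbp took 45.5% to 87.3%, at 15.9 and 16.3 against 17.97, 18.7 and 21.4 RPKM, and without Mbp the other 8 summed to 19.0 and 18.02 against 2.62, 2.71 and 3.62. Of 5 tested Schwann cell markers 3 were lower and 0 higher, and Foxd3 was listed at 0 in libraries 1 and 3 of CD133(high)CD71(low). The part of Schwann cells in the level of Erbb3 was not tested.

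The make-up of the EGF receptor family was nearly the same in both populations. Erbb3 took 55.1% and 53.9% of the family's summed RPKM in CD133(positive)CD71(negative) and 55.1%, 54.4% and 54.1% in CD133(high)CD71(low). Erbb2 took 30.5% to 34.3% across the 5 libraries. Only the share of Erbb4 did not overlap between groups and was larger in CD133(high)CD71(low), at 7.64%, 7.64% and 9.43% against 6.22% and 6.13%. Such shares compare genes within a library and do not depend on the scaling between libraries.

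Among the EGF family ligands, Tgfa was the most abundant and the sole one called. Tgfa (chromosome 6, 86195223 to 86275719), encoding TGF-alpha, a ligand of EGFR, measured 9.30 and 10.0 RPKM in CD133(positive)CD71(negative) and 16.1, 16.1 and 20.0 in CD133(high)CD71(low) (log2 fold change 0.78, SE 0.14, adjusted p = 0.0252). All CD133(high)CD71(low) libraries lay above both others, and the adjusted p ran from 0.000207 to 0.284 with 1 library left out. Hbegf, a heparin-binding ligand of EGFR and ERBB4, measured 4.97 and 4.84 against 7.42, 8.36 and 5.65 RPKM and Btc, encoding betacellulin, 3.57 and 4.75 against 5.16, 5.62 and 8.84. Neither was called (adjusted p = 0.135 and 0.175), and both were called without library 3 (adjusted p = 0.000951 and 0.0495). Library 3 was the lowest of its group for Hbegf and the highest for Btc. Egf was not higher in any CD133(high)CD71(low) library, at 4.78 and 4.64 against 4.49, 4.59 and 3.29 RPKM (log2 fold change -0.17, 95% interval -0.57 to 0.24, adjusted p = 0.434). The share of Egf in the summed RPKM of 6 EGF family ligands was 20.6% and 18.5% in CD133(positive)CD71(negative) and 13.2%, 13.0% and 8.43% in CD133(high)CD71(low), while that of Tgfa was 40.1% and 40.0% against 47.1%, 45.7% and 51.3%.

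The neuregulins, ligands of ERBB3 and ERBB4, were at 1 RPKM or less in every library. Nrg1 was at 0.13 and 0.17 RPKM in CD133(positive)CD71(negative) and 0.28, 0.42 and 0.20 in CD133(high)CD71(low). Nrg4 was at 0.44 and 0.65 against 0.67, 0.21 and 1.00 RPKM, with overlapping groups. Both were below the mean required for a test. Areg, encoding amphiregulin, was listed at 0 in 3 of the 4 tables that hold it and at 0.04 RPKM in library 2 of CD133(positive)CD71(negative).

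All FGF receptor genes were abundant and every CD133(high)CD71(low) library exceeded every CD133(positive)CD71(negative) library for each of them. The same held for 58.2% of all tested genes. Fgfr3 (chromosome 5, 33721674 to 33737068) was the highest of all members, at 109 and 118 RPKM in CD133(positive)CD71(negative) and 207, 201 and 295 in CD133(high)CD71(low) (log2 fold change 1.02, SE 0.21, adjusted p = 0.0318, and 0.0728 with quantile normalization). Fgfr4 measured 15.3 and 17.4 against 28.7, 28.2 and 34.8 RPKM (log2 fold change 0.86, SE 0.14, adjusted p = 0.0194). For both genes library 3 was the highest of its group. Fgfr2, the receptor through which FGF7 and FGF10 act on epithelium, measured 33.1 and 36.7 against 65.5, 64.2 and 131 RPKM. Library 3 stood far above the other libraries of its group. The log2 fold change was 1.21 and was not called over 5 libraries (SE 0.34, adjusted p = 0.0715, and 3.33e-05 without library 3). Fgfr1, a receptor common in mesenchyme, measured 31.0 and 34.3 against 44, 42.3 and 76.4 RPKM and was not called over 5 libraries (adjusted p = 0.147, and 0.00477 without library 3). Leaving out 1 library at a time moved the adjusted p between 2.78e-05 and 0.307 for Fgfr3 and between 0.000134 and 0.252 for Fgfr4.

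Fgfr3 made up most of the FGF receptor RNA in each library. Its share of the family's summed RPKM was 57.9% and 57.1% in CD133(positive)CD71(negative) and 60.0%, 59.9% and 54.8% in CD133(high)CD71(low), with overlapping groups. Fgfr2 took a larger share in CD133(high)CD71(low) (19.0%, 19.1% and 24.5%, against 17.5% and 17.8%) and Fgfr1 a smaller one (12.7%, 12.6% and 14.2%, against 16.4% and 16.6%).

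The FGF ligands of the list were scarce in both populations, and none reached the mean required for a test. Fgf1, a ligand that binds all FGF receptors, measured 0.43 and 0.53 RPKM in CD133(positive)CD71(negative) and 0.39, 0.48 and 0.53 in CD133(high)CD71(low). Fgf2 was seen mainly in CD133(positive)CD71(negative), at 0.28 and 0.22 against 0.045, 0 and 1.98e-31, the last an estimate of practically 0. Fgf7 lay at 0.012 to 0.057 RPKM in all 5 libraries, and Fgf10, the mesenchymal ligand of FGFR2 in the developing pancreas, was listed at 0 in every one. FGF receptor levels thus ran from 15.3 to 295 RPKM and those of these 4 ligands from 0 to 0.53.

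**Figure D2:**
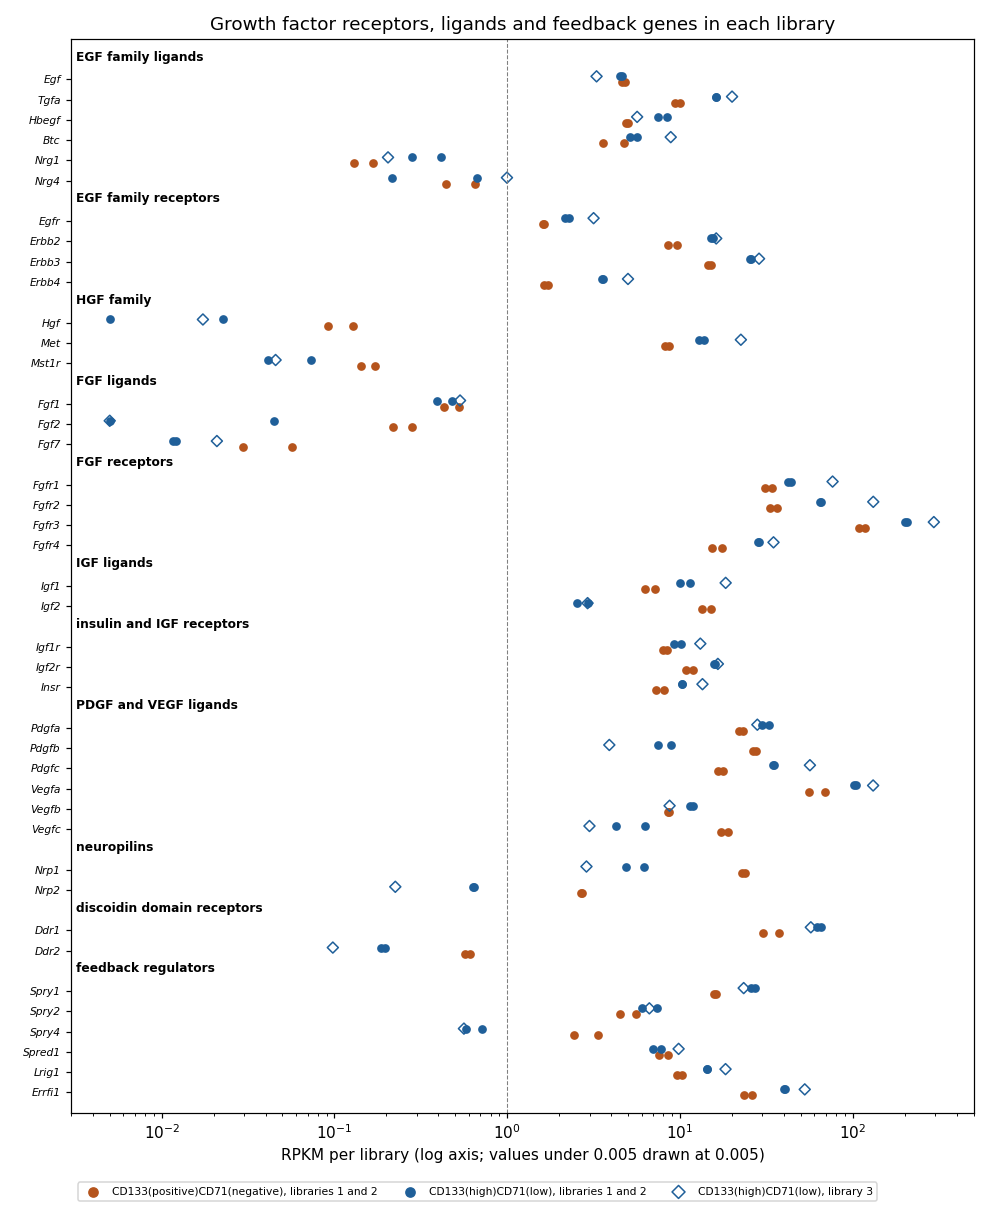
RPKM in each library of the members found in all 5 tables, except Fgf10, which was at 0 throughout (x axis, log scale, values under 0.005 drawn at 0.005), grouped by role (y axis). Orange points are CD133(positive)CD71(negative), blue points CD133(high)CD71(low) libraries 1 and 2 and open diamonds library 3, with a dashed line at 1 RPKM. Fgfr3, Vegfa and Fgfr2 lie furthest right, and Hgf, Mst1r, Fgf2 and Fgf7 lie below 0.3 in every library.

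Met, the receptor of hepatocyte growth factor, measured 8.62 and 8.24 RPKM in CD133(positive)CD71(negative) and 13.0, 13.8 and 22.5 in CD133(high)CD71(low). The groups did not overlap, with library 3 highest, and the log2 fold change of 0.84 (SE 0.25) was not called over 5 libraries (adjusted p = 0.0805, and 0.000467 without library 3). Hgf was at 0.13 and 0.092 RPKM in CD133(positive)CD71(negative) and at 0.023, 0 and 0.017 in CD133(high)CD71(low). Mst1r, encoding the related receptor RON, was at 0.14 and 0.17 against 0.073, 0.041 and 0.046 RPKM. Both were below the mean required for a test and were called lower when genes were tested without that filter (adjusted p = 0.0331 and 0.0363, beside 10.3% of 16793 genes called lower in that fit). So were Fgf2 (adjusted p = 0.00862) and Ddr2 (adjusted p = 0.00646).

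Of the IGF ligands, Igf2 was lower in CD133(high)CD71(low) cells, while Igf1 lay higher without being called over 5 libraries. Igf2 (chromosome 7, 142650766 to 142666816), a fetal growth factor, measured 15.2 and 13.3 RPKM in CD133(positive)CD71(negative) and 2.94, 2.52 and 2.92 in CD133(high)CD71(low). The CD133(high)CD71(low) libraries were tightly grouped, and the means differed 5.10-fold (log2 fold change -2.01, SE 0.13, adjusted p = 0.000816). This was the sole member called in every fit with 1 library left out (adjusted p = 5.64e-07 to 0.0347). Igf1 measured 7.19 and 6.31 against 9.96, 11.4 and 18.4 RPKM (log2 fold change 0.83, SE 0.27, adjusted p = 0.0917, and 0.00144 without library 3). Igf1 therefore made up 32.2% and 32.1% of the IGF ligand RNA in CD133(positive)CD71(negative) and 77.2%, 81.8% and 86.3% in CD133(high)CD71(low). Igf2 overlaps Igf2os on the other strand and Gm49394 on its own strand, and no source used here states whether counting used strand, so their reads cannot be told apart. Other called members also overlap an annotated gene on the other strand, and the same limit holds for them. They are Tgfa, Erbb2, Fgfr3, Pdgfb, Pdgfc, Nrp2, Ddr1, Spry1, Spry4 and Errfi1.

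The receptors of insulin and the IGFs were at moderate and similar levels. Igf2r, which clears IGF2, measured 10.8 and 11.8 RPKM in CD133(positive)CD71(negative) and 15.9, 15.7 and 16.6 in CD133(high)CD71(low) (log2 fold change 0.47, 95% interval 0.19 to 0.75, adjusted p = 0.0508). Insr measured 7.31 and 8.08 against 10.3, 10.3 and 13.5 RPKM (adjusted p = 0.0941) and Igf1r 7.96 and 8.44 against 10.1, 9.29 and 13.1 (adjusted p = 0.186). The groups did not overlap for any of the 3, and 58.2% of all tested genes also had every CD133(high)CD71(low) library higher. With median-of-ratios scaling the log2 fold changes of Igf2r, Insr and Igf1r were 0.20, 0.23 and 0.08. None of the 3 was called with the filter on low values. Without that filter Igf2r was called higher (adjusted p = 0.0373). Without library 3, Igf2r and Insr were called (adjusted p = 0.00268 and 0.00721) and Igf1r was not (adjusted p = 0.067).

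The PDGF ligands split between the populations. Pdgfb (chromosome 15, 79995874 to 80014977), an endothelial product that recruits pericytes, measured 27.6 and 26.4 RPKM in CD133(positive)CD71(negative) and 8.90, 7.48 and 3.90 in CD133(high)CD71(low) (log2 fold change -1.91, SE 0.31, adjusted p = 0.0176). Pdgfc (chromosome 3, 81036416 to 81214040), a ligand made by epithelia, measured 16.5 and 17.8 against 35.0, 34.8 and 56.5 RPKM (log2 fold change 1.21, SE 0.24, adjusted p = 0.0306). Neither gene's groups overlapped, beside 58.2% of all tested genes with every CD133(high)CD71(low) library higher and 12.0% with every one lower. Library 3 was the most extreme for both Pdgfb and Pdgfc. Pdgfa was not called over 5 libraries, at 22.1 and 23.2 against 32.9, 29.8 and 28.0 RPKM (adjusted p = 0.0838, and 0.00261 without library 3). Of the summed RNA of these 3, Pdgfb took 41.7% and 39.1% in CD133(positive)CD71(negative) and 11.6%, 10.4% and 4.41% in CD133(high)CD71(low), and Pdgfc 25.0% and 26.4% against 45.6%, 48.3% and 63.9%. The adjusted p with 1 library left out ran from 1.79e-06 to 0.214 for Pdgfb and from 1.46e-05 to 0.293 for Pdgfc. The PDGF receptor genes, outside the list, were low. Pdgfra was at 0.46 and 0.60 RPKM in CD133(positive)CD71(negative) and 0.036 to 0.22 in CD133(high)CD71(low), and Pdgfrb at 1.34 and 1.13 against 1.29, 0.99 and 0.18.

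The VEGF ligands split likewise. Vegfa (chromosome 17, 46016993 to 46032369), the main growth factor of blood vessels, was the most abundant ligand of the list, at 55.9 and 69.5 RPKM in CD133(positive)CD71(negative) and 104, 101 and 131 in CD133(high)CD71(low) (log2 fold change 0.83, SE 0.18, adjusted p = 0.0368, and 0.069 with quantile normalization). Vegfc (chromosome 8, 54077606 to 54187096), which acts on lymphatic endothelium and whose upstream window is printed above, measured 19.0 and 17.4 against 6.24, 4.27 and 2.99 RPKM (log2 fold change -1.84, SE 0.26, adjusted p = 0.0116). Vegfb measured 8.48 and 8.59 against 11.9, 11.5 and 8.70 RPKM and was not called (adjusted p = 0.238, and 0.00372 without library 3). Of the summed RNA of Vegfa, Vegfb and Vegfc, Vegfa made up 67.0% and 72.8% in CD133(positive)CD71(negative) and 85.2%, 86.5% and 91.8% in CD133(high)CD71(low). Vegfc made up 22.8% and 18.2% against 5.10%, 3.65% and 2.09%. The adjusted p with 1 library left out ran from 0.000539 to 0.345 for Vegfa and from 1.5e-05 to 0.175 for Vegfc.

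The receptors that answer these VEGF ligands were lower in CD133(high)CD71(low) cells. Nrp1 (chromosome 8, 128358604 to 128503363), a co-receptor of VEGF-A and of semaphorins, measured 23.8 and 23.0 RPKM in CD133(positive)CD71(negative) and 6.18, 4.84 and 2.87 in CD133(high)CD71(low) (log2 fold change -2.16, SE 0.27, adjusted p = 0.00792). Nrp2, a co-receptor of VEGF-C, measured 2.72 and 2.66 against 0.64, 0.64 and 0.23 RPKM (log2 fold change -1.31, SE 0.17, adjusted p = 0.00845). Nrp2 passed the filter only through the group in which it was high. The adjusted p with 1 library left out ran from 1.17e-06 to 0.139 for Nrp1 and from 1.91e-05 to 0.145 for Nrp2. The VEGF receptor genes, which are not members of the list, were lower as well. Kdr was at 47.1 and 43.7 against 10.8, 6.86 and 2.78 RPKM (adjusted p = 0.0209), Flt1 at 45.3 and 44 against 13.0, 7.99 and 4.53 (adjusted p = 0.017) and Flt4 at 5.74 and 5.48 against 1.82, 1.06 and 0.50 (adjusted p = 0.0175).

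**Figure D3:**
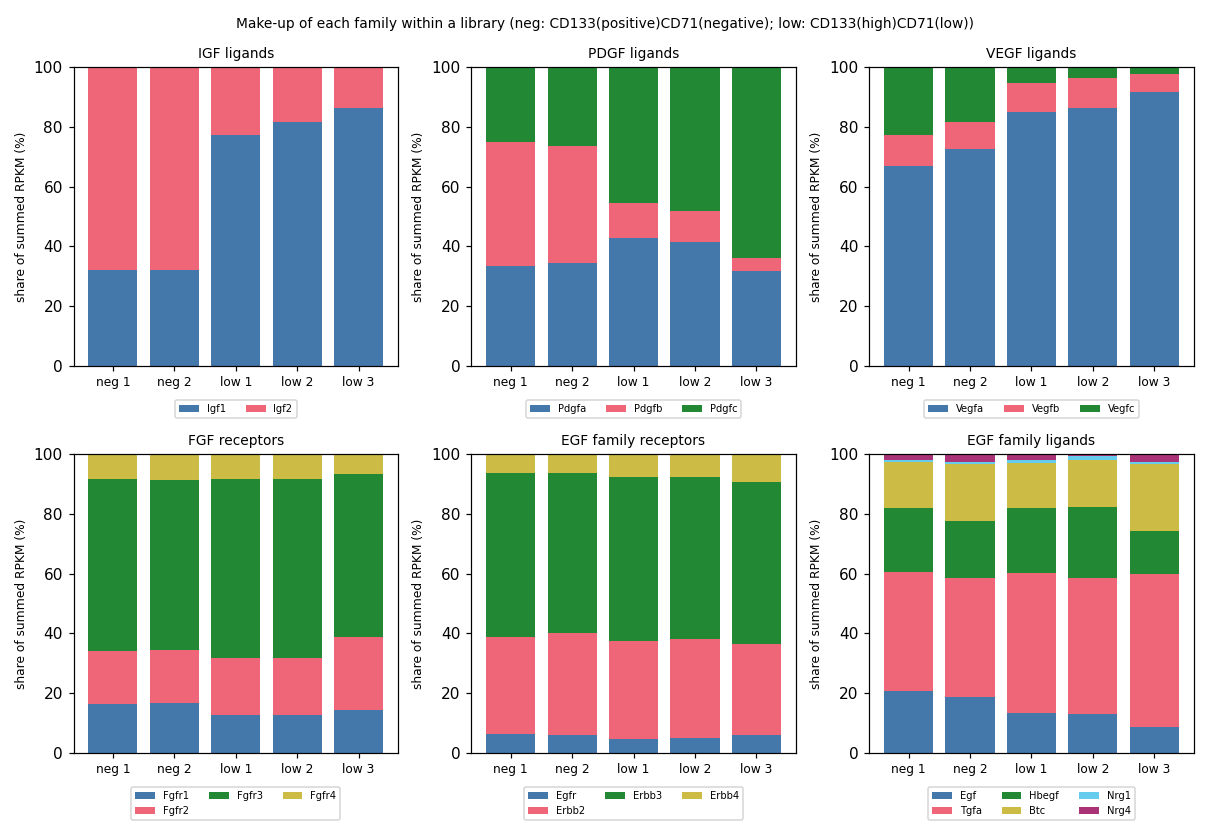
Share of each gene in the summed RPKM of the plotted genes of its family (y axis, percent) in each library (x axis). On the x axis neg is CD133(positive)CD71(negative) and low is CD133(high)CD71(low). The plotted PDGF ligands are Pdgfa, Pdgfb and Pdgfc, without Pdgfd. The IGF, PDGF and VEGF ligand families change make-up between the groups, with Igf1 at 32.1% to 32.2% against 77.2% to 86.3%, while the EGF family receptors keep nearly the same make-up.

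Summed markers of vessels moved with several of the lower members. The mean endothelial marker sum was 4.43-fold higher in CD133(positive)CD71(negative), beside 5.05-fold for Nrp1, 5.37-fold for Nrp2, 4.04-fold for Vegfc, 3.99-fold for Pdgfb, 5.10-fold for Igf2 and 4.66-fold for Spry4. Within CD133(high)CD71(low) the endothelial sum was highest in library 1 and lowest in library 3, and so were Nrp1, Vegfc, Pdgfb, Spry4, Kdr, Flt1 and Flt4, but not Igf2 or Nrp2. That order was not particular to endothelial markers. The leukocyte sum had it too (66.2, 56.0 and 29.6 RPKM). So did the mesenchymal sum without Vim (36.4, 31.7 and 23.8), though not with Vim (96.3, 89.4 and 94.0). Per 100 RPKM of endothelial markers, Vegfc measured 2.25 and 2.19 in CD133(positive)CD71(negative) and 2.43, 2.48 and 2.37 in CD133(high)CD71(low). Nrp1 measured 2.81 and 2.89 against 2.40, 2.82 and 2.28, and Pdgfb 3.25 and 3.32 against 3.46, 4.35 and 3.09 on the same measure. Relative to endothelial markers, the groups overlapped for 5 of the 6 lower members, the exception being Vegfc, which was slightly higher in CD133(high)CD71(low). Kdr was lower on this measure, at 5.56 and 5.51 against 4.21, 3.99 and 2.20, and so was Flt1, at 5.34 and 5.54 against 5.04, 4.65 and 3.59. Ecscr was the sole endothelial marker of 13 not called lower and took 3.69% to 38.4% of the sum. Without it the sum was 5.33-fold higher in CD133(positive)CD71(negative), Pdgfb measured 3.38 and 3.47 per 100 RPKM against 3.94, 5.36 and 5.01 and was higher in CD133(high)CD71(low) as was Vegfc, 4 of the 6 lower members overlapped, and Flt1 overlapped too. The leukocyte sum differed far more, 31.8-fold, and the mesenchymal sum less, 2.60-fold, or 3.51-fold without Vim, which took 54.5% to 74.7% of it. The collagen genes Col1a1, Col1a2 and Col3a1 differed 9.26-, 6.85- and 6.26-fold, but of 10 tested mesenchymal markers 6 were lower and 4 were not called. Rgs5 was among those not called. It made up 10.3% and 13.2% of the sum without Vim in CD133(positive)CD71(negative) and 38.3%, 37.8% and 70.4% in CD133(high)CD71(low). Per 100 RPKM of leukocyte markers all 6 lower members were higher in CD133(high)CD71(low), and per 100 RPKM of mesenchymal markers all 6 were lower, or 4 of the 6 without Vim, when Vegfc and Spry4 overlapped. Leaving out Ecscr or Vim was chosen after the data were seen. The part of these cell types in the differences was not tested.

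The higher members and the summed duct markers were higher in the same group, but did not all follow the same order within it. Within CD133(high)CD71(low) the duct sum was highest in library 3 (5108, 5107 and 7247 RPKM). Ddr1 (65.1, 62.3 and 57.2) and Spry1 (27.0, 25.8 and 23.4) were lowest there, while the other higher members were highest there. The mean duct marker sum was 1.59-fold higher in CD133(high)CD71(low), beside 1.80-fold for Erbb3, 1.80-fold for Tgfa, 2.07-fold for Fgfr3 and 2.45-fold for Pdgfc. Per 100 RPKM of the duct sum, 6 of the 11 higher members remained above CD133(positive)CD71(negative) in every CD133(high)CD71(low) library, and 5 did when Spp1, which made up 56.7% to 66.9% of that sum, was left out. Those 5 were Erbb3, Erbb4, Fgfr3, Fgfr4 and Pdgfc, while the 6 were Tgfa, Erbb4, Fgfr3, Fgfr4, Pdgfc and Errfi1. Erbb3 thus overlapped on the full sum, and Tgfa and Errfi1 overlapped without Spp1. Without Spp1, Erbb3 and Fgfr4 were only just apart. The lowest CD133(high)CD71(low) library was at 1.157 for Erbb3 and 1.296 for Fgfr4, against a highest other library at 1.152 and 1.292. Without Spp1, Fgfr3 measured 8.72 and 8.72 per 100 RPKM of duct markers in CD133(positive)CD71(negative) and 9.36, 9.40 and 12.3 in CD133(high)CD71(low), and Pdgfc 1.32 and 1.32 against 1.58, 1.62 and 2.35. On that measure Erbb2 was 0.68 and 0.71 against 0.69, 0.72 and 0.67, with overlapping groups. These ratios, which do not depend on the scaling between libraries, were chosen after the values were seen and were not tested.

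**Figure D4:**
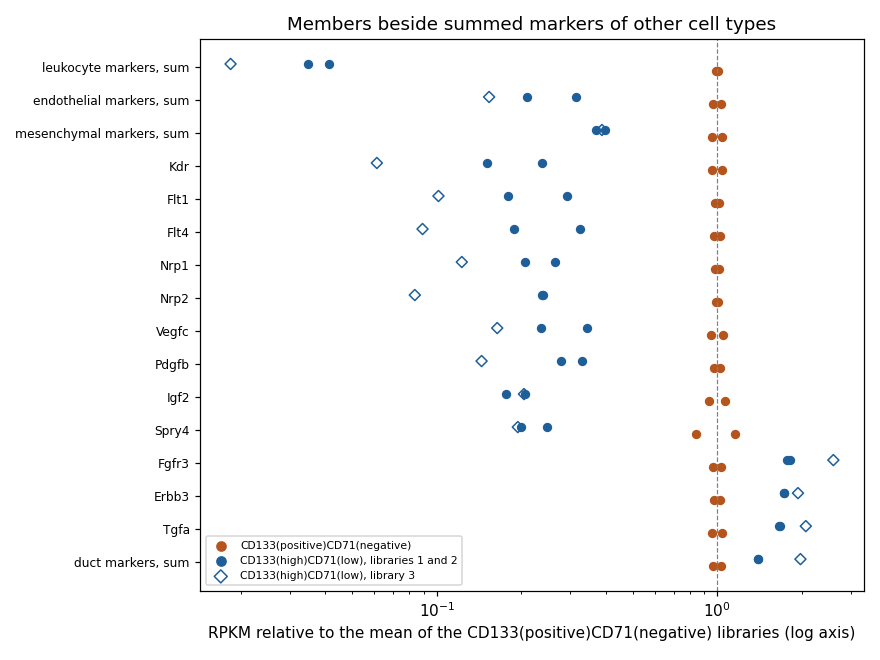
RPKM of selected members, VEGF receptor genes and marker sums, each relative to the mean of the CD133(positive)CD71(negative) libraries (x axis, log scale). Points are libraries, coloured by group, with library 3 as an open diamond. The lower members lie in the range of the endothelial markers, and Fgfr3, Erbb3 and Tgfa lie on the side of the duct markers.

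The discoidin domain receptors, which bind collagen, were on opposite sides. Ddr1, the epithelial one, measured 30.3 and 37.4 RPKM in CD133(positive)CD71(negative) and 65.1, 62.3 and 57.2 in CD133(high)CD71(low) (log2 fold change 0.85, SE 0.14, adjusted p = 0.0184, and 0.123 with median-of-ratios scaling). Ddr2, the mesenchymal one, was low throughout, at 0.57 and 0.61 against 0.19, 0.20 and 0.098 RPKM. The adjusted p of Ddr1 with 1 library left out ran from 0.000118 to 0.234.

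The feedback genes did not move as a group. Spry4 (chromosome 18, 38586247 to 38601415) measured 3.34 and 2.43 RPKM in CD133(positive)CD71(negative) and 0.715, 0.579 and 0.561 in CD133(high)CD71(low) (log2 fold change -1.25, SE 0.15, adjusted p = 0.00627). Like Nrp2, it passed the filter only through the group in which it was high. Spry1, another Sprouty inhibitor of Ras-ERK signalling, measured 15.7 and 16.2 against 27.0, 25.8 and 23.4 RPKM (log2 fold change 0.64, SE 0.12, adjusted p = 0.0258, and 0.272 with median-of-ratios scaling). Errfi1, an inhibitor of the EGF receptor family, measured 23.3 and 26.2 against 40.0, 40.5 and 52.7 RPKM (log2 fold change 0.81, SE 0.16, adjusted p = 0.0329). The groups of these 3 genes did not overlap, beside 58.2% of all tested genes with every CD133(high)CD71(low) library higher and 12.0% with every one lower. Lrig1, which promotes ERBB receptor degradation and marks epithelial stem cells in some tissues, measured 9.58 and 10.3 against 14.4, 14.4 and 18.3 RPKM without being called (adjusted p = 0.0565, and 0.00148 without library 3). Spry2 was at 5.58 and 4.52 against 6.06, 7.33 and 6.65 RPKM (adjusted p = 0.15, and 0.0341 without library 3). Spred1 had overlapping groups, at 7.59 and 8.48 against 6.96, 7.78 and 9.82 RPKM (log2 fold change 0.01, 95% interval -0.41 to 0.44), and turned to -0.25 with median-of-ratios scaling. With 1 library left out the adjusted p ran from 7.27e-05 to 0.107 for Spry4, from 0.000144 to 0.289 for Spry1 and from 0.000224 to 0.324 for Errfi1.

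Other genes of these pathways were called in both directions. Of 85 tested genes from 5 further lists, 9 were higher and 12 lower, with a median log2 fold change of 0.16, beside 6.25% and 7.22% of all genes and a median of 0.31. That is 10.6% and 14.1% of these 85. With median-of-ratios scaling 3.53% were higher and 17.6% lower, beside 2.65% and 9.25% of all genes. Without library 3, 32.9% were higher and 24.7% lower, beside 40.9% and 12.2%. Among 13 other ligands and receptors of the same families, Fgfrl1, an FGF receptor without a kinase domain, was higher (7.08 ± 0.19 RPKM, SD, n = 2, against 11.5 ± 0.60, SD, n = 3, limma adjusted p = 0.0248, and 0.197 with median-of-ratios scaling). Fgf12, which encodes an intracellular FGF homologue, was also higher (2.72 ± 0.55 against 7.02 ± 1.98, adjusted p = 0.0382). Kdr, Flt1 and Flt4 were the lower ones.

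The IGF-binding proteins, which hold IGFs in the extracellular space, were lower in CD133(high)CD71(low) cells where called. Of 9 tested insulin and IGF partners 0 were higher and 3 lower in limma, or 0% and 33.3%, beside 6.25% and 7.22% of all genes. Without library 3, 2 were higher and 4 lower, or 22.2% and 44.4%, beside 40.9% and 12.2%. At an unadjusted p under 0.05 over 5 libraries, 2 were higher and 3 lower. Igfbp6 was at 4.47 ± 0.21 RPKM (SD, n = 2) against 0.43 ± 0.24 (SD, n = 3), with an adjusted p of 0.00288, and it reached the mean of 1 RPKM only through the group in which it was high. Igfbp3 was at 129 ± 2.66 against 21.2 ± 12.0 (adjusted p = 0.024) and Igfbp4 at 41.3 ± 2.71 against 8.15 ± 4.23 (adjusted p = 0.0184). Igfbp3 and Igfbp4, like the endothelial and the leukocyte marker sums, were highest in library 1 of CD133(high)CD71(low) (33.3 and 12.8 RPKM) and lowest in library 3 (9.31 and 4.46).

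Of 16 tested genes of ligand and receptor processing, 5 were higher and 2 lower, or 31.25% and 12.5%, beside 6.25% and 7.22% of all genes. With median-of-ratios scaling 2 were higher and 2 lower, or 12.5% each, beside 2.65% and 9.25%. Without library 3, 9 were higher and 4 lower, or 56.25% and 25%, beside 40.9% and 12.2%. The membrane serine protease gene Hpn (54.6 ± 6.66 RPKM, SD, n = 2, against 91.1 ± 7.25, SD, n = 3, adjusted p = 0.0276) and the genes of the protease inhibitors of HGF activation Spint1 (34.7 ± 1.11 against 55.2 ± 6.07, adjusted p = 0.0346) and Spint2 (149 ± 11.8 against 228 ± 3.12, adjusted p = 0.0344) were higher. With median-of-ratios scaling these 3 were not called (adjusted p = 0.0645, 0.0986 and 0.298). The urokinase gene Plau (2.15 ± 0.13 against 0.50 ± 0.10, adjusted p = 0.0053) and the sheddase gene Adam15 (43.9 ± 1.71 against 18.4 ± 2.35, adjusted p = 0.00608) were lower. Plau, too, reached the mean of 1 RPKM only through the group in which it was high. Leaving out 1 library at a time moved the adjusted p of Hpn between 0.000465 and 0.306 and that of Adam15 between 2.46e-05 and 0.127.

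Readouts of ERK activity and the shared transducers gave few calls. Of 15 tested ERK feedback and response genes 0 were called in either direction by limma, and 2 were higher and 0 lower at an unadjusted p under 0.05. Without library 3, 2 were higher and 3 lower, or 13.3% and 20%, beside 40.9% and 12.2% of all genes. Median-of-ratios scaling gave 0 higher and 2 lower, or 0% and 13.3%, beside 2.65% and 9.25%. Joining these changes gave 1 higher and 6 lower, or 6.67% and 40%, beside 15.2% and 16.5%. The most abundant, Ccnd1 (cyclin D1) and Fos, measured 159 ± 16.9 and 81.9 ± 10.4 RPKM in CD133(positive)CD71(negative) (SD, n = 2) against 181 ± 51.4 and 104 ± 20.7 in CD133(high)CD71(low) (SD, n = 3), with adjusted p of 0.608 and 0.286. Of 32 shared signal transducers 2 were higher and 4 lower, or 6.25% and 12.5%, beside 6.25% and 7.22% of all genes. Without library 3, 10 were higher and 6 lower, or 31.3% and 18.8%, beside 40.9% and 12.2%. The adaptor gene Gab1 (12.1 ± 1.02 against 19.1 ± 2.09, adjusted p = 0.0448) and the PI3K subunit gene Pik3r2 (10.3 ± 0.54 against 15.3 ± 0.70, adjusted p = 0.0401) were higher, and neither was called with median-of-ratios scaling (adjusted p = 0.0648 and 0.192). The leukocyte-rich PI3K subunit gene Pik3cd (4.64 ± 0.19 against 0.48 ± 0.094, adjusted p = 0.000701), Pik3r3 (4.78 ± 0.52 against 0.76 ± 0.13, adjusted p = 0.0015) and Plcg2 (6.40 ± 0.48 against 1.51 ± 0.24, adjusted p = 0.00247) were lower. Pik3cd and Pik3r3 reached the mean of 1 RPKM only through the group in which they were high. The leukocyte marker sum was 31.8-fold higher in CD133(positive)CD71(negative), and its part in these differences was not tested.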

How the data were processed

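The authors deposited a table for each library, with one value per symbol. Partek and mm10 are named, per the submitters' processing notes. Software version, aligner and gene annotation: not given in the sources used here. The unit is not stated either, and the deposited values behaved as RPKM: between 53.5% and 67.6% of the low values tested, multiplied by transcript length, lay within 0.05 of whole reads (10.0% by chance), too few for count tests. A row of the library 3 table that names no gene and lists 74.2 M alignments was left out. Groups came from the titles, and the library without a number was called library 3. Replicate pairs differed by more than sampling noise, so none was counted as a duplicate.

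Common symbols with a mean of at least 1 were tested as log2(RPKM + 1) in R 4.3.3 with limma 3.58.1 (group as the sole term, trended empirical Bayes, Benjamini-Hochberg adjustment over all tested genes). The code was run on simulated data with the same spread for every gene, taken from the CD133(positive)CD71(negative) pair. No simulated library deviated as library 3 does, so that run says nothing on how the test performs with library 3. A fold change on this scale understates that of low genes. With 2 libraries against 3, an exact permutation test cannot go below p = 0.2, so none was used. The members, lists and tests were chosen with earlier results of these data known. All members are named. Of each pathway list, up to 3 higher and 3 lower genes with the smallest p are named, or the 2 highest if none was called. Ratios to marker sums, family shares, promoter motifs, Pdgfra, Pdgfrb and the genes of the closing observations were chosen after values were seen. Positions are from the GENCODE annotation (mm10), and promoter windows from RefSeq, which held 35 of the 44 members. Alternatives were a replicate block, leaving out each library, quantile normalization, median-of-ratios scaling, other filters and another pseudocount. Tables were made with pandas 2.3.3 and numpy 2.4.6 in Python 3.11.15, and figures with matplotlib 3.10.9.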

Additional observations from a re-analysis of the deposited data

How the results depend on the processing

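Over 5 libraries 11 members were called higher and 6 lower, among 735 higher and 850 lower genes. With each library left out in turn the members called higher ranged from 0 to 24 and those called lower from 1 to 6, the genes called higher from 0 to 4785 and those called lower from 154 to 1425. Quantile normalization gave 7 higher members. Without the filter on low values 10 members and 1726 genes were lower, and with a mean of at least 5 required 315 genes were lower, since other genes were tested. Median-of-ratios scaling gave 312 higher genes. Joined with the omission of library 3, it gave 19 higher members, 1782 higher genes and 1933 lower genes. A fit with the replicate number as a block, library 3 in a block of its own, gave 24 higher members, 5325 higher genes and 1492 lower genes, with Egfr (adjusted p = 0.018) and Fgfr1 (adjusted p = 0.000296) among the higher members. The labels do not say that the numbers pair libraries, and the deviations of same-numbered libraries correlated at -0.024, so this block is not a paired design. Library 3, alone in its block, adds nothing to the group difference, so the log2 fold changes were those found without library 3. That of Egfr was 0.2952 and that of Fgfr1 0.3935 in both fits. The cause of the other shifts was not tested. The log2 fold change of Spred1 reversed sign to -0.25 with median-of-ratios scaling, -0.22 with quantile normalization and -0.11 with the replicate block. It was also reversed without library 3 (-0.11, and -0.28 with median-of-ratios scaling) and without library 1 of CD133(positive)CD71(negative) (-0.06). It stayed positive without library 1 or 2 of CD133(high)CD71(low) (0.11 and 0.04) and without library 2 of CD133(positive)CD71(negative) (0.09). The other tested members kept their sign in the alternatives run. A pseudocount of 0.1 changed no call of a member.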

Other observations

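Stem cell factor and its receptor, a ligand and receptor pair outside the families above, lay on opposite sides. Kit measured 12.1 and 12.5 RPKM in CD133(positive)CD71(negative) and 16.0, 16.4 and 25.8 in CD133(high)CD71(low) (limma adjusted p = 0.132, and 0.00566 without library 3). Its ligand gene Kitl measured 12.5 and 13.0 against 4.35, 4.23 and 8.71 (adjusted p = 0.0702, 2.33e-06 without library 3, and 0.0163 with median-of-ratios scaling). The groups did not overlap for either gene, beside 58.2% of all tested genes with every CD133(high)CD71(low) library higher and 12.0% with every one lower.

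Pdgfd, another PDGF ligand gene, was above Pdgfa in every library, at 29.5 and 26.3 RPKM in CD133(positive)CD71(negative) and 38.1, 38.7 and 49.8 in CD133(high)CD71(low) (adjusted p = 0.0732, and 0.00268 without library 3). Fgf9 stood out in library 3 of CD133(high)CD71(low) at 3.33 RPKM, against 0.81 and 0.94 in the other libraries of its group and 0.43 and 0.52 in CD133(positive)CD71(negative) (adjusted p = 0.212). Fgf21, an FGF made by exocrine pancreas, was at 5.13 and 4.74 RPKM against 6.43, 4.34 and 3.00, with overlapping groups.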
